A study of Caenorhabditis elegans with 24 samples.

Results

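The response of VC3201 worms to cco-1 RNAi was measured as the difference between 3 libraries of worms on cco-1 RNAi and 3 libraries of worms on control RNAi, 6 of the 24 libraries of the study. VC3201 is the Caenorhabditis elegans strain that the labels give as an atfs-1 mutant, and both groups carry that mutation. Eggs freed by hypochlorite were placed on RNAi plates, RNAi began at the L1 stage, and whole worms were collected after 2.5 days at 20 °C as L4 larvae or young adults. The control group ate bacteria with the empty vector, and the treated group ate 50% cco-1 RNAi bacteria mixed with 50% empty vector bacteria. PolyA-selected RNA of the whole animal was sequenced on a BGISeq500. The labels number replicates 1 to 3 and do not say whether they were separate cultures. The p-values rest on the spread between replicates, pooled over all 24 libraries of the study, and this spread may be technical. Every gene of the table was taken: 14561 of 16927 genes reached a mean of at least 1 CPM (counts scaled to a common total of 1000373 per library) in at least 1 of the 8 groups and were tested. The same RNAi in N2, the wild-type strain (3 libraries on control RNAi and 3 on cco-1 RNAi), serves as the reference for the strain. The study asked in its title how mitochondrial stress acts on the lysosome through ELT-2, and VC3201 is its strain with a mutated atfs-1.

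cco-1 encodes a nuclear subunit of cytochrome c oxidase, the last complex of the respiratory chain, and its knockdown during larval growth is a standard way to stress mitochondria in C. elegans. ATFS-1 is the transcription factor that drives the unfolded protein response of mitochondria. It is imported into healthy mitochondria and degraded there, and goes to the nucleus when import falters, where it raises mitochondrial chaperones, proteases and import factors. ELT-2 is the GATA factor that governs most genes of the differentiated intestine, the worm's organ of digestion, fat storage and yolk synthesis.

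The deposited values had been quantile normalized, which gives every library nearly the same set of values. At a level of 1 CPM the control libraries of VC3201 held 8 to 10 reads and the cco-1 RNAi libraries 17 to 19, and at 10 CPM they held 108 to 141 and 200 to 218. The control libraries thus held fewer reads at both levels, while their total depth is not known. The part of depth in any result on genes of low level was not tested. Fold changes are given on the log2(CPM + 1) scale, with their standard error (SE) and a p-value adjusted over all 14561 genes. The median of all genes was -0.06 in VC3201 on this scale. When quantile normalization was partly undone by ranking low values back to reads, that median was -0.25, a shift of -0.19. The shift differed with level. The median of genes under 4 CPM went from 0.05 to 0.09, and that of genes of 4 to 16 CPM from -0.09 to -0.22. For genes of 16 to 64 CPM it went from -0.13 to -0.42, and medians at higher levels also moved down. Small changes thus depend on the scale and on level, and the median of all genes is only a rough reference for them. In bulk RNA of whole worms, fewer cells of a type and less RNA per cell cannot be told apart.

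cco-1 itself fell (gene at chromosome I, 9788725 to 9790050, WBcel235). Its levels were 354, 349.7 and 333 CPM in the control libraries and 112, 127 and 135 CPM in the cco-1 RNAi libraries, a log2 fold change of -1.47 (SE 0.08, adjusted p = 1.0e-15). Every treated library lay below every control library, so the RNAi label holds in all 6. In N2 the mean went from 292 ± 35.6 to 128 ± 5.85 CPM (SD, n = 3). The transcript of the mutated gene atfs-1 was present in VC3201 at 20.8, 22.8 and 20.3 CPM on control RNAi and 29.3, 23.9 and 25.4 CPM on cco-1 RNAi, with a log2 fold change of 0.28 (SE 0.06, adjusted p = 3.2e-04). The groups did not overlap, but the change was -0.03 on the partly undone scale and 0.21 once centred on the median of all genes. N2 worms on control RNAi held 74.5 ± 3.47 CPM of atfs-1 RNA (SD, n = 3), above every VC3201 library. elt-2 stood at 16.6, 17.7 and 16.5 CPM on control and 18.7, 16.9 and 21.1 CPM on cco-1 RNAi. Its log2 fold change was 0.15 (SE 0.21, adjusted p = 0.56), its libraries overlapped, and the change was -0.17 on the partly undone scale. That SE pools the spread over all groups of the study, those on elt-2 RNAi included. Over the alternative fits its adjusted p ran from 0.19 to 0.82.

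cco-1 RNAi moved a large share of the transcriptome of VC3201. In all, 3921 genes rose (26.9% of those tested) and 5397 fell (37.1%), so 64% were called at an adjusted p under 0.05. Counts over gene lists are read against these shares. The 3 libraries of each group did not overlap for 3858 genes that were higher (26.5%) and 5367 that were lower (36.9%), 63.4% of genes in all. Most genes named below were picked for small p-values or large changes in these libraries, so groups that lie apart follow largely from that choice. On the partly undone scale 3343 rose and 7686 fell, and after centring on the median of all genes 5302 rose and 5162 fell. Rising genes were 42.1% of the called genes as deposited, 30.3% partly undone and 50.7% centred, so the balance of directions is set by the scale. Centring sets the median of all genes to 0, so the near-even split there follows largely from that step. Changes of at least 2-fold were less common: 731 genes rose (5.02%) and 469 fell (3.22%). In N2 the same RNAi raised 2541 genes (17.5%) and lowered 2385 (16.4%), of which 157 (1.08%) and 189 (1.3%) passed 2-fold. Counts over gene lists in N2 are read against 17.5% and 16.4% and are given as deposited only. Partly undone, 2030 genes rose and 4089 fell in N2, so small changes there depend on the scale too. The authors' deposited table, which was fitted with limma-voom on all 16927 genes, gives 4235 raised and 5650 lowered genes for VC3201.

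**Figure D1:**
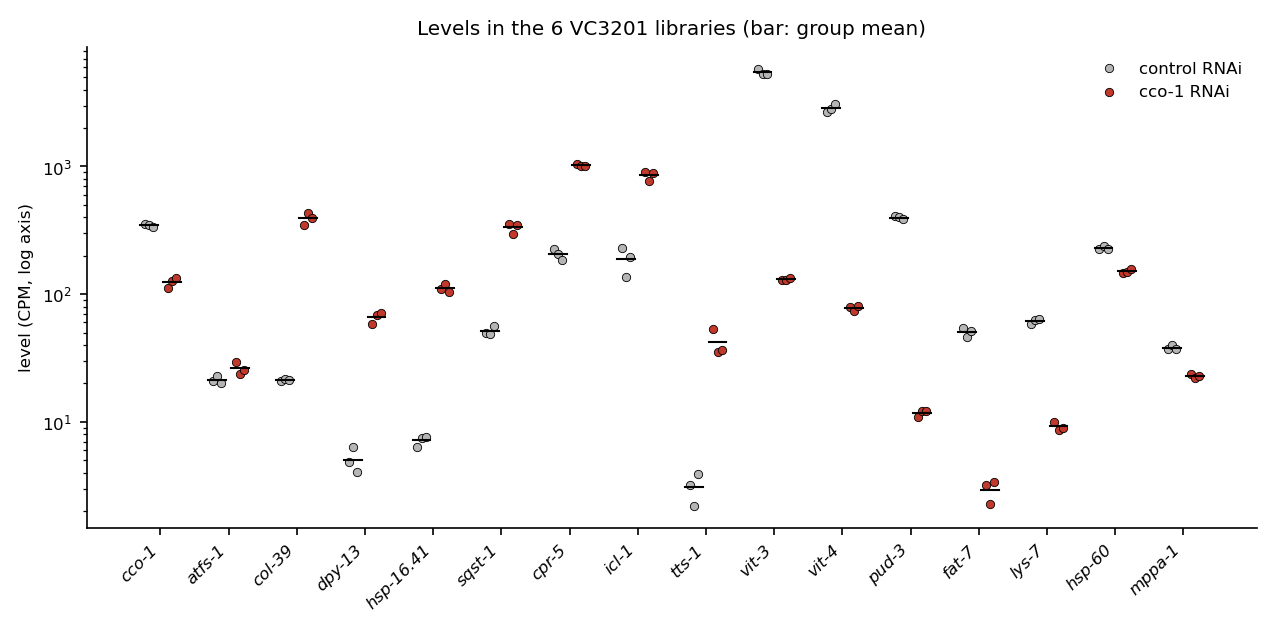
Level in CPM (vertical log axis) of 16 genes described in the text in each of the 6 VC3201 libraries, grey points for control RNAi and red points for cco-1 RNAi, with a bar at each group mean. The 2 groups are apart for each gene shown; vit-3 goes from 5261 CPM or more in the controls to 135 CPM or less, and col-39 from 21.6 CPM or less to 351 CPM or more.

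The strongest rise of a gene group was in the cuticle collagens, the proteins that epidermal cells secrete to build each new cuticle. Of 139 collagen genes tested, 104 rose and 11 fell, against 26.9% and 37.1% of all genes, and 82 rose at least 2-fold. Their median log2 fold change was 1.56, and it was 1.43 and 1.68 on the partly undone and the centred scale. col-39 (chromosome II, 10704916 to 10706019) went from 20.8, 21.6 and 21.2 CPM to 351, 433 and 397 CPM, a log2 fold change of 4.15 (SE 0.10, adjusted p = 4.0e-23). col-145 held 6.10, 7.01 and 7.45 CPM on control RNAi and 112, 116 and 118 CPM on cco-1 RNAi. For both collagens the lowest treated library was more than 10 times the highest control. dpy-13, a collagen whose mutants are short and fat, was at 4.82, 6.31 and 4.02 CPM and 58.02, 69.0 and 71.0 CPM, and its log2 fold change was 3.48 (SE 0.18, adjusted p = 6.1e-16).

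Collagens that were already abundant rose as well. col-139 went from 602, 674 and 584 CPM to 2080.0, 2240.4 and 1922 CPM, and col-81 from 479, 573 and 456 CPM to 1850.3, 1887 and 1887 CPM. Not all followed: col-101, the most abundant collagen that fell at least 2-fold, went from 817, 796 and 817 CPM to 363, 321 and 304 CPM, with a log2 fold change of -1.30 (SE 0.07, adjusted p = 1.0e-15). col-135 fell from 9.69, 9.37 and 8.5005 CPM to 0.318, 0.145 and 0.151 CPM, where each treated library held few reads. Summed over all collagens tested, the level was 28104 to 30410.1 CPM in the control libraries and 37945 to 40793 CPM in the treated ones.

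Genes of molting and the apical matrix, which shape and shed the cuticle, were split. Of 29 tested, 16 rose and 7 fell, with a median log2 fold change of 0.28. mlt-8, needed for molting, went from 4.40, 3.37 and 3.52 CPM to 9.84, 12.02 and 11.198 CPM. nhr-25, a nuclear receptor of epidermal development and molting, fell from 6.64, 7.18 and 6.77 CPM to 4.39, 2.47 and 3.53 CPM, a log2 fold change of -0.84 (SE 0.11, adjusted p = 3.1e-07). The treated libraries were below the controls for nhr-25 and above them for mlt-8. The ground-like gene grl-21, of a family related to hedgehog signals, rose from 1.53, 0.630 and 1.18 CPM to 25.4, 19.7 and 23.1 CPM, and 8 of 13 tested grl genes rose. In N2 the collagens moved less: 50 rose and 22 fell, with a median of 0.21. The strain test gave a higher response in VC3201 for 102 members and a lower one in 5, against 16.8% and 23.2% of all genes. For col-39 the difference between strains was 3.16 (SE 0.15, adjusted p = 5.1e-16), and for dpy-13 it was 3.00 (SE 0.25, adjusted p = 1.4e-10).

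Yolk proteins fell most. The intestine of the adult hermaphrodite makes them and the oocytes take them up, and all 6 genes were lowered. vit-3 (chromosome X, 3567355 to 3572549) went from 5815, 5261 and 5261 CPM to 129.9, 129 and 135 CPM, a log2 fold change of -5.36 (SE 0.10, adjusted p = 2.0e-26), the largest fall among the genes named by the rule. vit-4 fell from 2665, 2834 and 3094 CPM to 80.0, 73.8 and 81.0 CPM, with a log2 fold change of -5.17 (SE 0.09, adjusted p = 1.6e-26). For both genes the lowest control was more than 20 times the highest treated library. vit-1 stood at 7182 CPM in each control library and at 547, 503 and 547 CPM on cco-1 RNAi. vit-5 went from 11962 CPM in each control to 1997, 1787 and 1738 CPM. The most abundant transcripts take fixed values in quantile normalization, so equal values across libraries are ranks and their spread is no error. vit-2 and vit-6 show this: vit-6 moved from the second to the third rank, a log2 fold change of -0.70, and vit-2 from the first to the second, -0.22, and the call of vit-2 was lost when any single library was left out (adjusted p from 0.077 to 0.084). vit-3, vit-4 and vit-5 are close copies of each other, so how reads were shared among them is uncertain. Yolk genes fell in N2 as well: 4 were lowered and none raised, with a median of -2.60. There vit-3 changed by -4.50, vit-4 by -3.90, vit-1 by -2.80 and vit-5 by -2.40. The strain test called 4 members lower in VC3201 and none higher, against 23.2% and 16.8% of all genes. The summed yolk level in VC3201 was 69400.0 to 69786 CPM in controls and 33915 to 34175 CPM in treated libraries. These sums rest largely on values set by rank, so neither their size nor their narrow spread measures the amount of yolk RNA.

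Oocyte and germline genes fell together by small amounts. Of 33 genes of the oocyte, yolk receptor and eggshell, 32 fell and none rose, with log2 fold changes from -0.85 to -0.11 and a median of -0.35. oma-2, a zinc finger protein of oocyte maturation, went from 930.2, 948 and 887 CPM to 656, 647 and 631 CPM. rme-2, the yolk receptor, fell from 642, 624 and 651 CPM to 424, 485 and 424 CPM, and puf-5, an RNA-binding protein of growing oocytes, from 1064, 1019.8 and 1019.8 CPM to 750.4, 777 and 718 CPM. All 3 genes had treated libraries wholly below the controls. Among 36 germline, meiosis and cell cycle genes 25 fell and 1 rose. The replication helicase subunit mcm-2 changed by -0.47 (SE 0.04, adjusted p = 1.4e-10) and the germ granule helicase glh-1 by -0.44 (SE 0.04, adjusted p = 8.9e-10). In N2 the oocyte list, as deposited, did not move this way: 3 rose and 2 fell. The response in VC3201 was lower for 29 of 33 members by the strain test, which called 23.2% of all genes in that direction. For oma-2 the difference was -0.53 (SE 0.07, adjusted p = 2.5e-07).

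Sperm genes went up while oocyte genes went down. Of 81 major sperm protein and sperm-specific genes, 58 rose and 4 fell, with a median log2 fold change of 0.60. gsp-3, a phosphatase of sperm, went from 24.5, 28.8 and 22.2 CPM to 77.6, 83.1 and 87.9 CPM, and msp-64 from 47.3, 53.7 and 44.9 CPM to 99.1, 111 and 113 CPM. The sperm gene sss-1 rose from 27.9, 29.3 and 26.7 CPM to 71.1, 72.8 and 71.2 CPM, and for all 3 no library of one group reached the other. Major sperm proteins are encoded by many nearly identical copies, and reads may be split among them. In N2 64 rose and 1 fell, with a median of 0.61. The strain test called a higher response in VC3201 for 8 members and a lower one in 8, against 16.8% and 23.2% of all genes. The summed sperm level was 1824 to 2104 CPM on control RNAi and 3062 to 3393 CPM on cco-1 RNAi, while the summed oocyte level was 26990.5 to 28379 and 20359 to 21322 CPM. These sums moved together with the cuticle and yolk genes above in the same 6 libraries, and the part of developmental stage or germline size in those results was not tested.

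**Figure D2:**
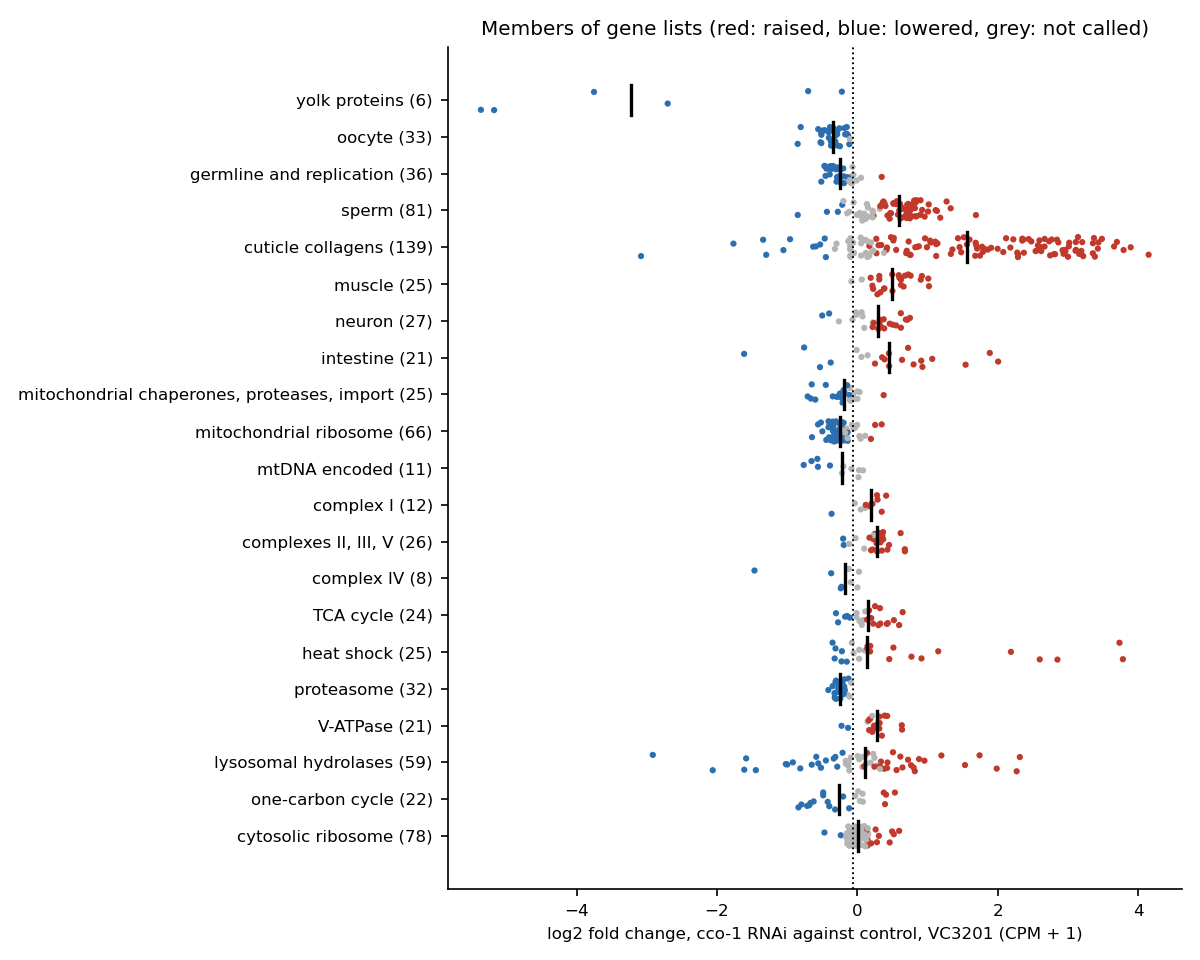
Log2 fold change with cco-1 RNAi in VC3201 (horizontal axis, CPM + 1) of every tested member of 21 gene lists, number of members in brackets, red for raised, blue for lowered and grey for not called; the thick bar is the list's median and the dotted line the median of all genes, -0.06. Yolk proteins lie at the left with a median of -3.23, cuticle collagens at the right with 1.56, and every member of the oocyte and proteasome lists lies left of the line.

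Among marker lists of somatic tissues, muscle genes rose most uniformly. Of 25 muscle genes 23 rose and none fell, with a median of 0.50 (0.20 partly undone). The myosin heavy chain myo-3 went from 111, 109.8 and 115 CPM to 201, 221 and 207 CPM, and paramyosin, unc-15, from 959, 966 and 1009.8 CPM to 1578, 1509 and 1607 CPM. The troponin tnt-3 changed by 0.92 (SE 0.06, adjusted p = 8.8e-14), and treated libraries exceeded all controls for each of these genes. Neuronal markers rose in 17 of 27 and fell in 2. egl-3, which cuts neuropeptide precursors, rose by 0.75 and its partner chaperone sbt-1 by 0.71 on the log2 scale. Neuropeptide and insulin-like genes rose in 45 of 88 and fell in 1. Many of them lie at low levels, where the median of genes under 4 CPM was 0.05 as deposited and 0.34 centred, against -0.13 and -0.18 for genes of 16 to 64 CPM.

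Intestinal markers rose in 14 of 21 and fell in 4, and the change ran from -1.61 to 2.00. ifb-2, an intermediate filament of the gut's terminal web, went from 88.0, 94.4 and 86.6 CPM to 324, 345.1 and 331 CPM, a log2 fold change of 1.88 (SE 0.05, adjusted p = 3.4e-23). ifo-1, which organises those filaments, rose from 45.2, 50.4 and 49.6 CPM to 161, 123.2 and 146 CPM, and the microvillar actin act-5 from 463, 512.6 and 633 CPM to 995, 983 and 1019.8 CPM. The drug transporter pgp-1 held 15.9, 19.6 and 22.7 CPM and 77.3, 86.1 and 76.8 CPM. These structural genes of the gut were higher in all 3 treated libraries, while yolk genes, also made by the gut, were lower. The intestinal metallothionein mtl-2 fell from 13.4, 14.1 and 15.03 CPM to 4.03, 3.62 and 4.24 CPM. In N2 9 rose and 6 fell, and ifb-2 changed by 1.16 there. Summed levels of the intestinal list were 7078 to 8114 CPM in controls and 12245 to 12442 CPM in treated libraries.

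Genes that ATFS-1 is known for, the mitochondrial chaperones, proteases and import factors, mostly fell in the mutant. Of 25, 1 rose and 16 fell, with a median of -0.20. hsp-60, the mitochondrial chaperonin, went from 228, 238 and 225 CPM to 146, 150.2 and 158 CPM, a log2 fold change of -0.60 (SE 0.07, adjusted p = 1.2e-08). mppa-1, a subunit of the peptidase that removes import signals, fell from 37.02, 40.0 and 37.2 CPM to 23.9, 22.1 and 22.7 CPM, and its partner mppb-1 from 50.4, 50.9 and 54.0 CPM to 40.8, 35.9 and 36.2 CPM. All 3 were lower in every treated library. timm-23, of the inner membrane translocase, was the member that rose, from 60.7, 65.2 and 61.0 CPM to 70.9, 89.3 and 83.7 CPM, by 0.37 (SE 0.07, adjusted p = 5.6e-05), a call lost on the partly undone scale (0.08). The chaperone hsp-6, the usual reporter of this response and named here after its values were seen, stood at 468, 475 and 459.8 CPM and 495, 451 and 488 CPM. Its log2 fold change was 0.03 (SE 0.05, adjusted p = 0.64), with overlapping libraries, and it was -0.02 centred. On the partly undone scale it was -0.27 and called as a fall (adjusted p = 2.1e-04).

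As deposited, the same list in N2 went the other way: 13 rose and 1 fell, with a median of 0.16. Whether that direction holds in N2 on the partly undone scale was not tested. By the strain test none of the 25 members gave a higher response in VC3201 and 21 gave a lower one, where 23.2% of all genes were called lower. hsp-6 rose by 0.32 in N2, and the difference between strains was -0.29 (SE 0.08, adjusted p = 0.0035). For mppa-1 the difference was -1.03 (SE 0.08, adjusted p = 5.4e-11), with 30.4 ± 1.01 CPM on control and 38.1 ± 1.56 CPM on cco-1 RNAi in N2 (SD, n = 3). hsp-60 fell in both strains, by -0.19 in N2, and differed by -0.41 (SE 0.10, adjusted p = 0.0011). The strain difference of timm-23, -0.31 (SE 0.10, adjusted p = 0.018), was not called when VC3201 cco-1 RNAi replicate 1 was left out (-0.21, adjusted p = 0.080).

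**Figure D3:**
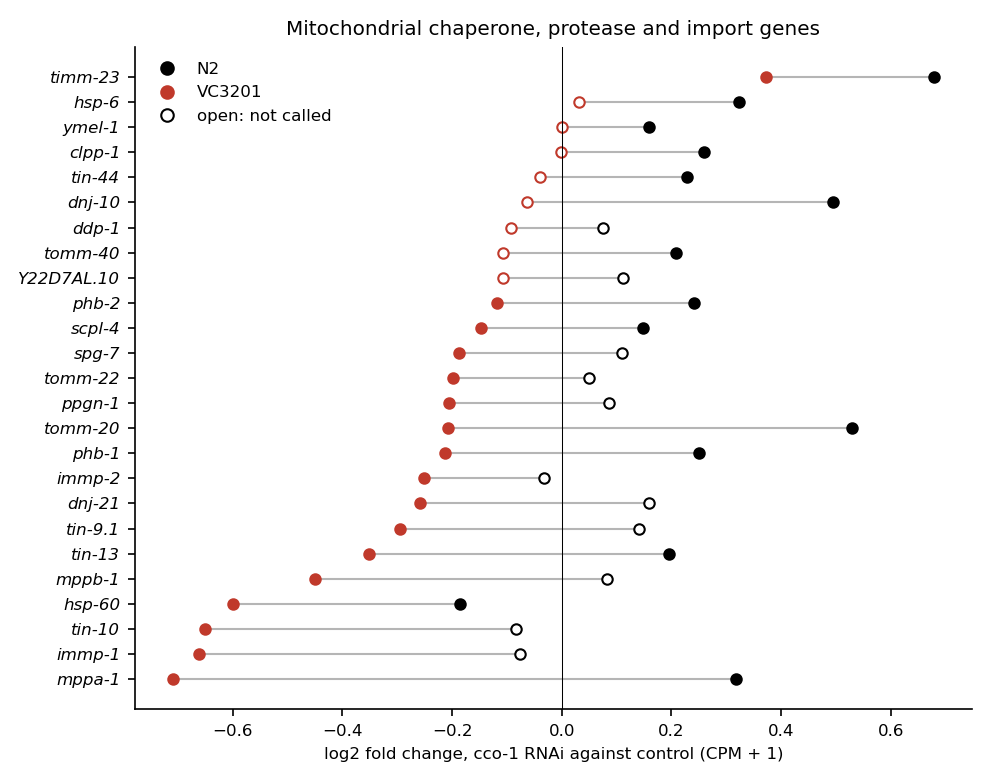
Log2 fold change with cco-1 RNAi (horizontal axis, CPM + 1) of the 25 mitochondrial chaperone, protease and import genes, black points for N2 and red points for VC3201, open where not called, with a line joining the strains. Every red point but that of timm-23 lies at or below 0.03, and every red point lies left of its black partner.

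The mitochondrial translation machinery fell too. Of 66 mitochondrial ribosomal protein genes 49 fell and 3 rose, with a median of -0.25. mrps-31, of the small subunit, went from 17.5, 19.6 and 19.1 CPM to 11.82, 11.76 and 11.198 CPM, and mrpl-24, of the large subunit, from 27.02, 28.5 and 29.3 CPM to 18.6, 19.5 and 20.2 CPM. Both were lower in all treated libraries. In N2, as deposited, 18 rose and none fell. The strain test called 46 members lower in VC3201 and none higher, against 23.2% and 16.8% of all genes. Cytosolic ribosomal protein genes, the counterpart outside mitochondria, had a median of 0.00 (-0.30 partly undone), with 13 of 78 raised and 2 lowered, and 7 and 10 on the centred scale.

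Respiratory chain subunits were taken by genome and by complex, and the lists were not tested against each other. Of 11 transcripts of the mitochondrial genome 5 fell and none rose, against 37.1% and 26.9% of all genes, and their summed levels overlapped, at 1961 to 2329 CPM on control and 1608 to 2193 CPM on cco-1 RNAi. ctc-2, a core subunit of cytochrome c oxidase, went from 158, 168 and 176 CPM to 117, 122.7 and 99.1 CPM. nduo-2, a core subunit of complex I, fell from 24.1, 29.2 and 33.5 CPM to 21.1, 19.1 and 17.3 CPM, and nduo-3 from 6.10, 7.64 and 6.33 CPM to 3.85, 3.34 and 3.34 CPM. In N2 7 of these transcripts rose and none fell, and nduo-2 differed between strains by -1.31 (SE 0.20, adjusted p = 7.4e-06). For ctc-2 the change in N2 was -0.24, and its difference between strains was not called, -0.33 (SE 0.15, adjusted p = 0.07). PolyA selection captures mitochondrial transcripts only in part.

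Among nuclear genes, 4 of 8 subunits of cytochrome c oxidase fell, cco-1 among them. Subunits of complex I rose in 8 of 12, with a median of 0.19 that became -0.11 on the partly undone scale. The complex I subunit gas-1 went from 92.7, 93.8 and 86.7 CPM to 115, 121 and 129 CPM, a rise not called partly undone (0.11), while its close copy nduf-2.2 fell from 111, 110.1 and 119 CPM to 91.1, 91.9 and 79.7 CPM. Reads may be shared between such copies, so the size of each change is uncertain. Under every alternative gas-1 stayed above 0 (0.11 to 0.45) and nduf-2.2 below 0 (-0.67 to -0.30). In complexes II, III and V 20 of 26 subunits rose, with a median of 0.28 (-0.00 partly undone). sdha-1 of complex II went from 165, 157 and 151 CPM to 234.7, 235.05 and 255.8 CPM, and ucr-2.1 of complex III from 148, 144 and 149.9 CPM to 229, 230.4 and 248 CPM. asb-2, of the ATP synthase, changed by 0.67 (SE 0.05, adjusted p = 8.2e-12), and the treated libraries exceeded the controls for each of these 3 genes.

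Regulators of the mitochondrial stress response fell in 12 of 22 and rose in 4, against 37.1% and 26.9% of all genes. lin-65, a chromatin factor of the response, fell from 40.3, 38.999 and 49.5 CPM to 32.1, 26.3 and 30.9 CPM, and ubl-5, a ubiquitin-like protein, from 16.7, 16.4 and 17.8 CPM to 10.96, 10.5 and 11.6 CPM. The zinc finger factor pqm-1 rose from 23.6, 26.3 and 24.9 CPM to 61.6, 59.0 and 71.4 CPM, a log2 fold change of 1.32 (SE 0.07, adjusted p = 4.2e-16). zip-2, a bZIP factor of pathogen defence, rose from 119, 131 and 141 CPM to 234, 189 and 239.6 CPM. It changed by 0.05 in N2, and the difference between strains was 0.70 (SE 0.09, adjusted p = 9.5e-07).

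Cytosolic heat shock genes gave some of the largest rises. Of 25 chaperone genes 14 rose and 6 fell, and 6 rose at least 2-fold, while the median was only 0.14 (-0.12 partly undone). hsp-16.41, a small heat shock protein, went from 6.36, 7.52 and 7.62 CPM to 109.8, 120.2 and 103.2 CPM, a log2 fold change of 3.78 (SE 0.14, adjusted p = 2.3e-19). hsp-16.2 rose from 3.50, 5.003 and 5.46 CPM to 69.5, 75.6 and 74.7 CPM, and the inducible chaperone hsp-70 from 4.74, 3.44 and 4.82 CPM to 41.9, 34.8 and 35.1 CPM. None of the 3 had a treated library near the control range. The hsp-16 genes lie in close copies, and reads may be shared among them. hsp-17 rose from 15.5, 17.3 and 15.4 CPM to 104, 102 and 100.3 CPM in VC3201 and by 2.68 in N2, with a strain difference of -0.09 (SE 0.10, adjusted p = 0.52). hsp-43, another small heat shock protein, rose by 0.77 in VC3201 and fell by 0.38 in N2, a difference of 1.15 (SE 0.08, adjusted p = 1.7e-12).

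The other protein quality lists covered the proteasome and the endoplasmic reticulum. Proteasome subunits fell in 29 of 32 and rose in none, within -0.41 to -0.09, against 37.1% and 26.9% of all genes. pas-2, a core subunit, went from 164, 168 and 162 CPM to 113, 131 and 127 CPM. In N2 none rose and 17 fell. The endoplasmic reticulum list was mixed, with 11 of 28 raised, 6 lowered and a median of 0.07 that was -0.19 partly undone. Of all genes 26.9% rose and 37.1% fell. abu-1, named for its activation when the unfolded protein response is blocked, rose from 1.62, 1.39 and 2.57 CPM to 22.3, 19.8 and 23.6 CPM. Calreticulin, crt-1, went from 668, 726 and 687 CPM to 930.1, 1046 and 937 CPM, whereas the disulfide isomerase pdi-2 fell from 882, 942 and 916 CPM to 636, 658 and 680.4 CPM. xbp-1, the transcription factor of this compartment, changed by 0.37 (SE 0.05, adjusted p = 8.6e-08), a call lost on the partly undone scale (0.07).

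The autophagy receptor sqst-1, which binds ubiquitinated cargo, rose most of its list. Its levels were 49.8, 48.7 and 56.6 CPM on control and 354, 295 and 349 CPM on cco-1 RNAi, a log2 fold change of 2.66 (SE 0.06, adjusted p = 1.6e-24). N2 changed by 0.70, and the difference between strains was 1.96 (SE 0.08, adjusted p = 4.5e-17). Of 33 autophagy genes 5 rose and 10 fell, both shares below the 26.9% and 37.1% of all genes. lgg-1, which coats autophagosomes, went from 179, 182 and 176 CPM to 251, 261 and 262 CPM, and hlh-30, the transcription factor of lysosome and autophagy genes, from 55.7, 53.8 and 63.2 CPM to 88.6, 72.1 and 92.0 CPM. epg-2, an adaptor for embryonic protein aggregates, fell from 22.3, 23.2 and 23.3 CPM to 11.5, 12.97 and 12.19 CPM.

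Lysosomal hydrolases, the enzymes that break down cargo in the lysosome, moved both ways. Of 59, 24 rose and 18 fell, with a median of 0.11 (-0.09 partly undone) and a range from -2.91 to 2.31. cpr-5, a cathepsin B, went from 226, 206 and 184 CPM to 1046, 1002 and 1009.7 CPM, a log2 fold change of 2.31 (SE 0.08, adjusted p = 4.6e-20). cpr-3 rose from 6.57, 6.16 and 7.27 CPM to 33.9, 39.7 and 34.2 CPM, and the aspartyl protease asp-10 from 85.0, 90.3 and 88.5 CPM to 362, 354 and 335 CPM. All 3 proteases had treated libraries far above the controls. cpz-1, cathepsin Z, fell from 385, 380.2 and 365 CPM to 122.98, 152 and 139 CPM, and the acid sphingomyelinase asm-3 from 29.2, 31.7 and 32.5 CPM to 2.88, 3.71 and 3.23 CPM. In N2 12 rose and 27 fell, but the hydrolases named here moved the same way there. The changes in N2 were 1.35 for cpr-5, 1.34 for cpr-3, 2.38 for asp-10, -1.98 for cpz-1 and -2.79 for asm-3. The strain test gave a higher response in VC3201 for 26 members and a lower one in 7, against 16.8% and 23.2% of all genes. V-ATPase subunits, which form the pump that moves protons into lysosomes, rose in 17 of 21, with a median of 0.28, 0.23 centred and -0.02 partly undone. vha-6, the membrane subunit of the gut's apical face, went from 190.1, 218 and 235.9 CPM to 356, 313 and 329.7 CPM, and vha-5 from 58.9, 59.4 and 59.7 CPM to 91.0, 99.2 and 87.5 CPM.

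The cathepsin B genes cpr-4 and cpr-1 went in opposite directions in the strains. cpr-4 rose in VC3201 from 122, 91.7 and 99.0 CPM to 163, 154 and 169 CPM, a log2 fold change of 0.64 (SE 0.08, adjusted p = 5.4e-08). In N2 it went from 223 ± 10.98 to 35.7 ± 0.651 CPM (SD, n = 3), and the difference was 3.25 (SE 0.11, adjusted p = 6.6e-19). cpr-1 rose from 175, 124 and 153 CPM to 251, 264 and 267 CPM in VC3201, where N2 went from 232 ± 20.6 to 54.7 ± 4.41 CPM (SD, n = 3), a difference of 2.86 (SE 0.12, adjusted p = 5.3e-17). The aspartyl protease asp-8 stayed low in VC3201, at 5.10, 7.52 and 6.16 CPM and 4.92, 4.68 and 4.74 CPM. N2 took it from 7.45 ± 1.097 to 105 ± 1.82 CPM (SD, n = 3), and the difference of -3.97 (SE 0.14, adjusted p = 1.9e-18) was among the 10 largest negative ones. The fall of asp-8 within VC3201, -0.32 (SE 0.10, adjusted p = 0.0079), was not called without VC3201 control replicate 2 (-0.19, adjusted p = 0.10), on the centred scale (-0.12, adjusted p = 0.34) or with only the 2 groups compared in the model (adjusted p = 0.061).

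Genes of the glyoxylate and gluconeogenic route rose more often than they fell. icl-1, the glyoxylate cycle enzyme that lets worms make sugar from fat, went from 230.2, 136 and 196 CPM to 907, 766 and 887 CPM, a log2 fold change of 2.21 (SE 0.11, adjusted p = 1.6e-16). tps-1, of trehalose synthesis, rose from 22.4, 24.2 and 22.2 CPM to 43.4, 37.8 and 40.0 CPM, and pck-1, the entry enzyme of gluconeogenesis, from 142, 114 and 116 CPM to 182, 204 and 199 CPM. In that list 9 of 16 genes rose and 5 fell. Of all genes 26.9% rose and 37.1% fell, the shares to set beside this list and those that follow. The TCA cycle list had 13 of 24 raised and 5 lowered, with a median of 0.15 (-0.15 partly undone). Citrate synthase, cts-1, rose from 1030.4, 983 and 954 CPM to 1564, 1547 and 1372 CPM, and the isocitrate dehydrogenase idh-1 from 404, 408 and 410.4 CPM to 633, 633 and 645 CPM. Glycolysis genes rose in 10 of 19 and fell in 5, with a median of 0.15 (-0.15 partly undone). hxk-1, a hexokinase, fell from 313, 303 and 318 CPM to 249, 253 and 234 CPM. gpd-2, a glyceraldehyde phosphate dehydrogenase with close copies, changed by 0.38 (SE 0.06, adjusted p = 2.0e-06), a call lost on the partly undone scale (0.08).

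Fat synthesis and fat breakdown genes changed one by one. The fatty acid desaturase fat-7 went from 54.3, 45.9 and 51.7 CPM to 3.18, 2.27 and 3.40 CPM, a log2 fold change of -3.72 (SE 0.11, adjusted p = 1.3e-21), and fat-5, a desaturase of palmitate, from 41.3, 46.2 and 39.9 CPM to 2.02, 2.77 and 2.13 CPM. dgat-2, of triglyceride synthesis, fell from 6.96, 6.38 and 7.62 CPM to 2.02, 1.86 and 1.997 CPM. These 3 genes were lowered in all treated libraries, whereas acetyl-CoA carboxylase, pod-2, rose from 378, 384 and 366 CPM to 538, 554 and 553 CPM. acly-1, ATP citrate lyase, fell from 229, 224 and 238 CPM to 126, 142 and 134 CPM in VC3201 but went from 222 ± 4.47 to 296 ± 8.59 CPM in N2 (SD, n = 3), a difference of -1.19 (SE 0.06, adjusted p = 1.6e-14). In the whole synthesis list 7 of 27 rose and 11 fell, near the 26.9% and 37.1% of all genes.

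Among 60 genes of acyl-CoA synthesis and beta-oxidation 31 rose and 15 fell, with a median of 0.14 (-0.12 partly undone). acs-2, an acyl-CoA synthetase of fasting worms, went from 9.33, 6.52 and 9.38 CPM to 67.0, 58.8 and 68.5 CPM, and the carnitine acyltransferase cpt-4 from 1.88, 1.12 and 2.24 CPM to 15.4, 11.7 and 13.5 CPM. The peroxisomal oxidase acox-3 fell from 14.9, 19.7 and 18.8 CPM to 2.38, 3.66 and 2.54 CPM, and the acyl-CoA synthetase acs-22 from 36.9, 38.9 and 37.6 CPM to 10.7, 13.8 and 11.4 CPM. Both rises and both falls left the groups apart. In N2 12 rose and 21 fell in this list, but the genes named here moved the same way there. The changes in N2 were 3.14 for acs-2, 0.92 for cpt-4, -1.35 for acox-3 and -2.05 for acs-22.

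One-carbon genes, which supply methyl groups and phosphatidylcholine, fell in 13 of 22 and rose in 4, with a median of -0.26. Of all genes 37.1% fell and 26.9% rose. S-adenosylmethionine synthetase, sams-1, went from 666, 689.6 and 763 CPM to 459.8, 434 and 434 CPM, and the methyltransferase pmt-2 from 671, 651 and 747 CPM to 406, 371 and 376 CPM. The folate reductase mthf-1 changed by -0.72 (SE 0.05, adjusted p = 1.4e-13), and all 3 had treated libraries below the controls. Amino acid breakdown genes were split, 13 raised and 8 lowered of 31, against 26.9% and 37.1% of all genes. gdh-1, glutamate dehydrogenase, rose from 1396, 1372 and 1420.5 CPM to 2054, 2427 and 2054 CPM. gta-1, GABA transaminase, rose from 208, 209 and 199 CPM to 377, 402 and 371 CPM and held 229 ± 6.98 and 229 ± 12.14 CPM in N2 (SD, n = 3), a strain difference of 0.90 (SE 0.06, adjusted p = 4.3e-12).

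Detoxification families moved both ways as well. Cytochrome P450 genes fell in 26 of 55 and rose in 9, against 37.1% and 26.9% of all genes, and on the centred scale 20 fell and 15 rose, with a median that turned from -0.14 to 0.05. cyp-25A1 went from 14.3, 11.7 and 13.1 CPM to 0.997, 0.608 and 0.885 CPM, and cyp-35A2, of the family that foreign compounds induce, from 49.4, 29.4 and 40.3 CPM to 8.81, 9.71 and 8.53 CPM. Against these falls, cyp-14A5 rose from 9.21, 9.96 and 10.2 CPM to 70.9, 67.1 and 64.7 CPM and differed from N2 by 3.28 (SE 0.11, adjusted p = 9.5e-19). Glucuronosyltransferases fell in 24 of 56 and rose in 17, near the shares of all genes. ugt-31 rose from 1.53, 2.61 and 3.31 CPM to 22.9, 24.7 and 22.7 CPM and changed by -0.04 in N2, while ugt-22 fell from 82.9, 72.6 and 73.8 CPM to 29.4, 27.4 and 27.6 CPM. Glutathione genes rose in 14 of 40 and fell in 12, against 26.9% and 37.1% of all genes. Among them gsto-1, of the omega class, went from 3.57, 3.52 and 4.49 CPM to 13.8, 13.1 and 14.9 CPM. In the antioxidant list, 7 of 28 rose and 9 fell, shares near or below those of all genes, and 8 rose and 6 fell on the centred scale. Of its members, msra-1, which repairs oxidised methionine, fell from 42.6, 44.5 and 35.8 CPM to 7.89, 10.3 and 8.59 CPM. In the hypoxia and sulfide list 11 of 22 rose and 6 fell. cysl-2, a cysteine synthase relative of cyanide and sulfide handling, rose from 33.4, 32.8 and 39.9 CPM to 76.6, 95.0 and 82.0 CPM, and the carbonic anhydrase cah-4 from 164, 161 and 163 CPM to 450.2, 429.9 and 461 CPM. The ferritin ftn-2, which stores iron, rose by 0.49 in VC3201 and fell by 0.79 in N2, a difference of 1.29 (SE 0.08, adjusted p = 9.7e-13).

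Defence genes included strong changes both ways. Of 51 lysozyme, saposin-like and antimicrobial peptide genes 20 rose and 17 fell, against 26.9% and 37.1% of all genes, and 26 and 14 did on the centred scale. The lysozyme lys-7 went from 58.6, 62.2 and 64.4 CPM to 10.01, 8.70 and 8.89 CPM, and spp-4, a saposin-like protein, from 93.6, 85.5 and 81.2 CPM to 22.2, 21.5 and 24.2 CPM. The epidermal peptide nlp-29 rose from 1.53, 1.02 and 2.01 CPM to 14.5, 15.5 and 11.9 CPM, and cnc-4, another epidermal peptide, from 0.132, 0.1303 and 0.299 CPM to 6.01, 5.83 and 3.63 CPM, where the controls held few reads. N2 changed by -0.60 for nlp-29, and the strain difference was 3.18 (SE 0.21, adjusted p = 1.3e-12). irg-1, a gene of the response to toxins and pathogens, stood at 0.0220, 0.446 and 0.676 CPM and 4.72, 5.17 and 6.13 CPM. Intracellular pathogen response genes rose in 7 of 10, and sdz-6 fell, by -2.23 on the log2 scale. Of those that rose, the F-box gene fbxa-182, the Skp1 relative skr-3 and the cullin cul-6, parts of ubiquitin ligases, changed by 2.25, 1.36 and 0.82. C-type lectins, a large family of secreted binding proteins, fell in 45 of 111 and rose in 37, near the shares of all genes, and 38 fell and 48 rose on the centred scale.

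Genes named for their link to insulin signalling held some of the largest values. pud-3, named for higher protein in a daf-2 insulin receptor mutant, went from 407, 401 and 385 CPM to 10.9, 12.08 and 12.13 CPM, a log2 fold change of -4.97 (SE 0.11, adjusted p = 2.3e-24). pud-4 fell from 73.5, 74.2 and 68.8 CPM to 2.54, 2.27 and 2.43 CPM, and dod-23, named as a gene downstream of DAF-16, from 71.0, 65.0 and 64.9 CPM to 9.62, 9.47 and 10.4 CPM. tts-1, a long noncoding RNA that is abundant in long-lived insulin mutants, rose from 3.17, 2.199 and 3.92 CPM to 53.8, 35.2 and 36.8 CPM, by 3.39 (SE 0.13, adjusted p = 1.7e-18). In the whole insulin and longevity list 11 of 43 rose and 20 fell, against 26.9% and 37.1% of all genes. Nuclear hormone receptors rose in 38 of 174 and fell in 48 as deposited, but 79 rose and 29 fell on the centred scale, where 36.4% and 35.5% of all genes did, so no direction can be given for this family. RNA interference machinery fell in 17 of 34 and rose in 3, against 37.1% and 26.9% of all genes. After centring 26 fell and 3 rose, against 35.5% and 36.4% of all genes, and in N2 5 fell and 2 rose.

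The largest rise named by the rule was that of F33H12.7, from 0.850, 0.343 and 1.05 CPM to 31.6, 30.5 and 31.9 CPM. Its controls lie near 1 CPM or below, and the log2 fold change, 4.23 as reported, was 2.66 with a pseudocount of 5 and 5.54 with limma-voom weights. C42D4.3 followed, from 4.19, 3.696 and 3.92 CPM to 91.1, 79.9 and 97.5 CPM. The elongation factor gene eef-1A.1 had the highest level of any transcript on cco-1 RNAi, rising from the fourth rank, 8657 CPM in each control, to the first, 22699 CPM in each treated library, a value set by rank. Its relative eef-1A.2 went from 607, 617 and 609.9 CPM to 1627, 1450.3 and 1509 CPM, by 1.32 (SE 0.05, adjusted p = 1.9e-18).

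Families defined by the letters of the gene name, 90 with at least 12 tested members, sort along the same lines. The major sperm proteins rose in 29 of 31, galectins (lec) in 11 of 12, V-ATPase subunits (vha) in 16 of 20, P-glycoproteins (pgp) in 10 of 14 and transthyretin-like genes (ttr) in 30 of 51. FMRFamide-like peptides (flp) rose in 17 of 30 and none fell. The F-box family fbxb fell in 56 of 62, the nucleoporins (npp) in 19 of 22, histones (his) in 24 of 33 and sdz, named for dependence on the embryonic factor SKN-1, in 18 of 22. vet-6, a transcript of very early embryos, fell from 16.6, 16.4 and 18.6 CPM to 2.17, 1.95 and 2.68 CPM, a log2 fold change of -2.48 (SE 0.09, adjusted p = 2.0e-19). The families were not fixed as lists and are given as counts only. Histone transcripts mostly lack polyA tails, and their near-identical copies may share reads.

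**Figure D4:**
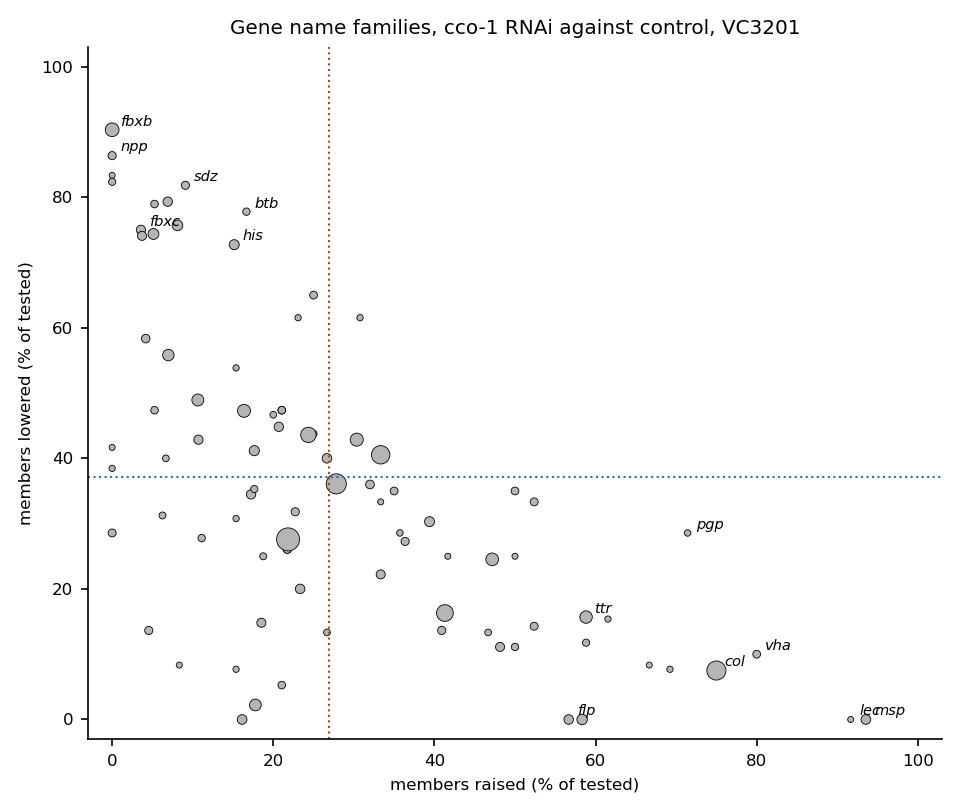
Share of tested members raised (horizontal axis, %) and lowered (vertical axis, %) with cco-1 RNAi in VC3201 for 90 gene name families, circle area in proportion to the number tested; dotted lines mark the shares of all genes, 26.9% raised and 37.1% lowered. The fbxb, npp and sdz families sit at the top left and msp, lec, vha and col at the bottom right.

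Among the nuclear chromosomes, the share of raised genes was lowest on III (22.5%) and I (22.6%) and highest on X (30.3%) and V (30.1%). In N2 12.01% of X-linked genes rose and 26.96% fell, and in VC3201 30.3% rose and 36.9% fell. The difference between strains was not tested by chromosome. Pseudogenes fell in 51.0% of 467, against 36.6% of 13912 protein-coding genes, and their median was -0.32 as deposited and -0.04 on the centred scale.

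The strains shared many genes. Of the 2541 genes raised in N2, 1678 also rose in VC3201, which is 66.0% of the N2 list and 42.8% of the VC3201 list. Of the 2385 lowered in N2, 1617 also fell in VC3201, 67.8% of the N2 list and 29.96% of the VC3201 list. A further 218 genes rose in N2 and fell in VC3201, and 207 fell in N2 and rose in VC3201. The test of the difference itself called 2448 genes with a higher response in VC3201 (16.8%) and 3371 with a lower one (23.2%), and 508 (3.49%) and 187 (1.28%) of these differed at least 2-fold. On the centred scale 3262 were higher (22.4%) and 2771 lower (19.03%), so the balance of strain differences also turns with the scale. The strain counts given for lists kept their direction there, with 109 collagens higher and 4 lower and 20 of the mitochondrial chaperone list lower, except that sperm genes went from an even split to 13 higher and 4 lower. Of the genes raised in N2 but not called in VC3201, 645 in all, 330 had a called lower response in VC3201. Called in VC3201 but not in N2 were 2036 raised and 3562 lowered genes, of which 1221 and 2172 differed by the strain test.

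Among the largest differences, Y41C4A.11 rose in VC3201 from 8.36, 10.3 and 10.5 CPM to 156, 168 and 165 CPM and held 21.4 ± 1.66 and 20.8 ± 1.41 CPM in N2 (SD, n = 3), a difference of 3.98 (SE 0.10, adjusted p = 9.9e-22). catp-3, a cation-pumping ATPase, rose from 6.29, 10.7 and 9.91 CPM to 72.2, 74.8 and 68.4 CPM, where N2 went from 17.4 ± 2.21 to 10.7 ± 1.44 CPM (SD, n = 3). The inositol transporter hmit-1.1 rose from 4.54, 4.44 and 4.21 CPM to 22.7, 20.6 and 23.4 CPM and changed by -0.96 in N2. In these 3 genes the treated VC3201 libraries were above every other library of the 4 groups. The lectin clec-4 (chromosome II, 12578331 to 12581113) fell in VC3201 from 7.24, 7.12 and 8.18 CPM to 2.77, 2.13 and 2.33 CPM. It went from 6.37 ± 1.57 to 60.7 ± 3.14 CPM in N2 (SD, n = 3), and the difference of -4.41 (SE 0.14, adjusted p = 2.0e-19) was the largest negative one among the genes the rule considered. clec-17 was at 0.0220, 0.1303 and 0.299 CPM and 0.732, 0.408 and 0.666 CPM in VC3201 and went from 0.832 ± 0.429 to 25.98 ± 2.11 CPM in N2 (SD, n = 3). Its small rise in VC3201 (0.48) was not called without VC3201 control replicate 1 (0.40, adjusted p = 0.058) or with a pseudocount of 5 (0.12, adjusted p = 0.057). F22B3.7 was at its lowest value, that of 0 reads, in all 6 VC3201 libraries, and at 11.1 ± 1.78 CPM in N2 on cco-1 RNAi (SD, n = 3). hrg-2, a haem-responsive gene, held 0.132, 0.239 and 0.676 CPM and 1.599, 1.28 and 0.995 CPM in VC3201 and reached 10.4 ± 1.21 CPM in N2 (SD, n = 3).

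**Figure D5:**
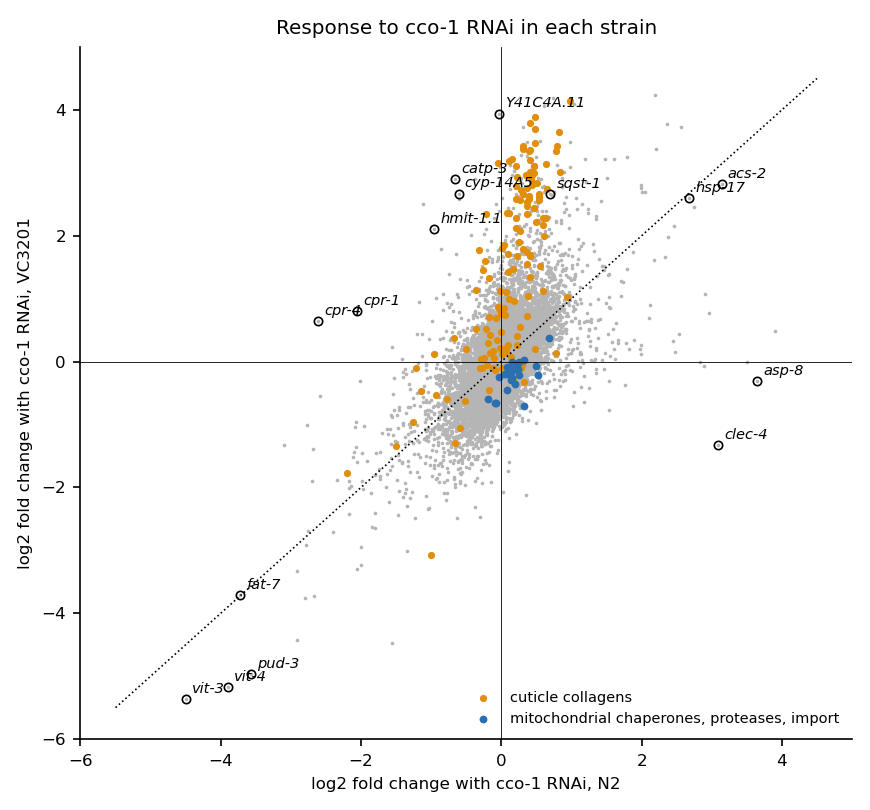
Log2 fold change with cco-1 RNAi in N2 (horizontal axis) and in VC3201 (vertical axis) of all 14561 tested genes in grey, with cuticle collagens in orange, mitochondrial chaperone, protease and import genes in blue, named genes circled, and the line of equal response dotted. Most collagens lie above the line, the blue points below it, and cpr-4, cpr-1, catp-3, cyp-14A5 and hmit-1.1 lie above 0 in VC3201 and below 0 in N2, while clec-4 and asp-8 do the reverse.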

How the data were processed

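The deposited table holds CPM values of 16927 genes in 24 libraries of polyA-selected RNA. The submitters' processing notes name STAR 2.73a and edgeR 3.24.3, and WBcel235 as the build; the counter is not given in the sources used here. Each library sums to 1000373, and sorted libraries agree within 1% at 52.6% of ranks, as after quantile normalization by the authors. The authors' deposited log2 fold changes and p-values, made with limma-voom according to their key sheet, gave 2 counts only, and the authors' deposited dependency scores, quotients of those fold changes, were not used.

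Values were fitted as log2(CPM + 1) in 1 model of 8 group means over 24 libraries, leaving 16 residual degrees of freedom, by limma 3.58.1 (R 4.3.3) and its intensity trend, 2-sided, Benjamini-Hochberg adjusted, called under 0.05. Genes needed a mean of 1 CPM in 1 group. The contrasts were cco-1 RNAi against control in VC3201 and in N2, and their difference. The script was tested on simulated data. On the partly undone scale, values of genes in ties were ranked back to reads, possible in every library for 8393 genes. Values that could not be ranked back were multiplied by a factor for their library. Replicates differed by 1.31 to 1.84 chi-square per gene in VC3201, so none is a copy. Depth is otherwise unknown, which limits precision at low levels.

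Members and the 44 gene lists were chosen with earlier results of these data known. Named genes were cco-1, elt-2 and atfs-1, 20 genes per direction with the largest change (called, at least 10 CPM in 1 group, no overlap), 10 strain differences per direction, 10 called oppositely, 15 abundant genes past 2-fold, and up to 6 members per list with the smallest p-values; the text gives part of them. Positions are those of the Ensembl annotation of WBcel235, which held 14487 tested genes. Planned promoter motif counts were not made.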

Additional observations from a re-analysis of the deposited data

Results flagged for a closer look

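Each value here is the log2 fold change with cco-1 RNAi in VC3201 minus that in N2, by the limma test of the difference itself, and was picked out because the strains differed. In all, 2448 genes had a higher response in VC3201 and 3371 a lower one, but on the partly undone scale 2093 and 5469 did, and on the centred scale 3262 and 2771, so the balance of directions depends on the scale.

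Several mitochondrial chaperone, import, ribosome and mitochondrially encoded genes had a lower response in VC3201: hsp-6 by -0.29, hsp-60 by -0.41, mppa-1 by -1.03, mppb-1 by -0.53, timm-23 by -0.31, mrps-31 by -0.77, mrpl-24 by -0.55, nduo-2 by -1.31 and nduo-3 by -1.34. In respiratory complexes II, III and V, 7 of 26 subunits had a higher response and 1 a lower one, against 16.8% and 23.2% of all genes. Of 22 regulators of the mitochondrial stress response 7 were lower and 4 higher, pqm-1 (0.82) and zip-2 (0.70) among the latter. Cuticle collagens were higher, with differences of 3.16 for col-39, 3.41 for col-145 and 3.00 for dpy-13, and oma-2 of the oocyte was lower (-0.53).

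Stress and metabolic genes with a higher response in VC3201 were hsp-43 (1.15), sqst-1 (1.96), ftn-2 (1.29), cysl-2 (1.28), gta-1 (0.90), ugt-31 (2.88) and nlp-29 (3.18), and acly-1 had a lower one (-1.19). Of the genes with the largest differences, Y41C4A.11 (3.98), catp-3 (3.55), cyp-14A5 (3.28), cpr-4 (3.25), cpr-1 (2.86), cnc-4 (2.85), hmit-1.1 (3.07) and parg-2 (3.27) were higher. Lower were clec-4 (-4.41), asp-8 (-3.97), clec-17 (-3.43), F22B3.7 (-3.51), hrg-2 (-2.19) and F55G11.8 (-2.304). Where a group lies near 0 CPM the size moved with the pseudocount and the weights: over the alternatives the difference ran from -7.73 to -1.67 for F22B3.7, from 1.14 to 5.85 for cnc-4 and from 1.64 to 4.95 for parg-2.

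Levels on control RNAi were not tested between strains, but the libraries of dpy-13 and of col-39 did not overlap. The level of dpy-13 on control RNAi was 5.05 ± 1.16 CPM in VC3201 and 34.3 ± 13.97 CPM in N2 (SD, n = 3), and that of col-39 was 21.2 ± 0.365 and 55.6 ± 3.06 CPM. On cco-1 RNAi dpy-13 stood at 66.0 ± 6.98 CPM in VC3201 and 45.4 ± 1.35 CPM in N2 (SD, n = 3). The part of the starting level in the differences in response was not tested.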

How the results depend on the processing

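The counts of genes raised and lowered in VC3201 stayed within 1.5 times the reported ones under all alternatives but 1, the rule that also asks for a 2-fold change (731 and 469; in N2 157 and 189). Leaving out 1 library gave 3672 to 3765 raised and 4932 to 5244 lowered in VC3201, 2146 to 2331 and 1980 to 2172 in N2, and 2265 to 2453 higher and 2972 to 3401 lower differences between strains. With quantile normalization partly undone, 4089 genes fell in N2 and 5469 responses were lower in VC3201, while on the centred scale 3262 were higher and 2771 lower. The centred version of that scale was chosen after seeing the data. Replicate numbers were used as a block in another fit: 3918 genes rose and 5402 fell in VC3201. Same-numbered libraries of the 2 groups deviated with correlations of -0.04, 0.05 and -0.00 in VC3201, against -0.07 to 0.09 for other numbers. In N2 they were 0.09, 0.10 and -0.03, against -0.12 to 0.03. With 3 libraries per group these values cannot show whether the numbers mark shared cultures or batches. With any 1 library left out, cco-1 changed by -1.52 to -1.39, atfs-1 by 0.20 to 0.34 and elt-2 by 0.07 to 0.22. On the partly undone scale atfs-1 (-0.033), elt-2 (-0.17) and hsp-6 (-0.27) turned negative, and hsp-6 was -0.023 centred. hsp-6 is too abundant to be ranked back, so its values there differ only by the factor of each library. For genes too abundant to be ranked back, the deposited and partly undone scales differ by these factors, which were set from genes that could be ranked back. Why the factors differ between the groups was not tested. Most of the 175 single-gene results are on genes chosen for large or clear changes in the same fit, so their calls tend to hold. Of the 175, 163 kept their direction and call under every alternative run. The other 12 included atfs-1, elt-2 and hsp-6 in VC3201, and the calls there of asp-8, clec-17, gas-1, gpd-2, timm-23, vit-2 and xbp-1. The rest were the strain differences of timm-23 and hsp-17, and that of hsp-17 was called in 1 alternative only. Of 172 called single-gene values, 44 moved by over 1.5 times in size on the partly undone scale, 27 with a pseudocount of 5, 8 with limma-voom weights and at most 1 under each other alternative. Counts and medians of the gene lists moved in 188 of 1848 comparisons, 118 of them on the partly undone or centred scale. Control libraries of VC3201 held fewer reads at low levels, which limits what can be said of genes with few reads.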
